A study of Mus musculus with 6 samples.

Results

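The genes described here lie around Cebpe on mouse chromosome 14 and were chosen by name for that position, with Cebpe itself left out. Of 33 listed symbols, 32 were found among the 47606 genes of the series, and Rbm23 was not analysed here. A filter on low values (averaging 1 FPKM or more across libraries) left 21 of the 32 genes for testing, and 11 lay below it. FPKM is the number of sequenced fragments scaled to transcript length and to library size.

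RNA was sequenced from 32D cells, a mouse myeloid line grown in interleukin 3 at 1 ng/mL. The cells of every group carried dCas9-KRAB, received lentivirus and were kept under puromycin for a week. There were 2 libraries with the empty vector (EV), 2 with guide sg2 and 2 with guide sg5, numbered 1 and 2 in each group. The EV libraries thus share the repressor fusion and the selection, and differ from the others by the guide. The series is titled for an enhancer of CEBPE, and its design sets EV against the guides. No source used here gives the positions of the guides, so distance was measured from Cebpe, between annotated start sites. The second sg5 library is named sg5 in its title and sg2 in its source name and genotype, and it was placed by its title.

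dCas9-KRAB is a Cas9 protein without cutting activity joined to a repressor domain. A guide RNA brings it to a chosen site, where the KRAB domain recruits partner proteins that deposit repressive histone marks, and such marks can extend from the site into nearby chromatin. CEBPE is a transcription factor of late granulocyte development.

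The implied depth of the libraries, read from the steps of the lowest values, was between 31800000 and 45700000 fragments. Of 11 myeloid progenitor genes 9 were measured, with summed levels between 773 and 1090 FPKM, and Kit was listed at 0 in every library. The summed level did not exceed 3.12 FPKM for 7 T cell genes, 9.93 for 5 B cell genes, 30.3 for 4 erythroid genes and 2.08 for 7 genes of fibroblasts and epithelium. From a list of 9 neutrophil genes 5 were measured: Lcn2, Ngp and Ltf, of specific granules, and S100a8 and S100a9, which encode cytosolic proteins. The summed level of the list ran from 448 to 681 FPKM over the EV libraries and from 132 to 188 over the guide libraries, and 0 of its genes passed the limma test. All 4 guide libraries lay below both EV libraries for each of the 5, against 2.56% of all genes tested. The part of this difference in the values below was not tested, and in bulk samples fewer cells of a type and less RNA per cell cannot be told apart. Genes under 200 nt held between 6.77% and 9.67% of the summed FPKM in libraries numbered 1 and between 15.4% and 21.5% in those numbered 2.

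Cebpe, the gene named in the title, has its start site at position 54712174 of chromosome 14 (GRCm38, minus strand). EV libraries 1 and 2 held 42.0 and 100.4 FPKM of it, the sg2 libraries 14.4 and 18.7 and the sg5 libraries 19.4 and 22.7. All 4 guide libraries lay below both EV libraries, and the EV libraries differed widely from each other. The log2 difference between guides and EV was -1.75 (SE 0.36) on the log2(FPKM + 1) scale used for every difference below. It did not pass the limma test over 12929 genes (Benjamini-Hochberg adjusted p = 1.00). With the replicate number as a block the limma adjusted p over all genes was 0.223, and between 0.132 and 0.851 with 1 library left out as well. It was 0.0181 only where the block was joined with a limit to protein-coding genes, a setting chosen after the data were seen. Without the second EV library the log2 difference was -1.14.

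The neighbours closest to Cebpe by start site are 1700123O20Rik, an uncharacterised protein-coding gene, and Acin1, whose product acts in apoptotic chromatin condensation and RNA splicing. 1700123O20Rik (ENSMUSG00000040822, chromosome 14, 54686216 to 54690741, plus strand) starts 26.0 kb from Cebpe. Acin1 (ENSMUSG00000022185, chromosome 14, 54642161 to 54686931, minus strand) starts 25.2 kb from Cebpe. The genes are on opposite strands and overlap at their 5′ ends, with start sites 715 bases apart and 463 shared exonic bases. These are 23.9% of the exonic bases of 1700123O20Rik and 4.40% of those of Acin1, and whether strand was used in counting is not stated, so reads from the shared stretch may be assigned to either gene. On the other side of Cebpe, Slc7a8 (ENSMUSG00000022180, chromosome 14, 54722209 to 54781946, minus strand) encodes an exchanger of neutral amino acids. Its nearest edge is 10.03 kb from Cebpe and its start site 69.8 kb.

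Sequences upstream of the start sites of these 3 genes are shown for the promoters nearest to Cebpe, and none reaches the start site itself. They come from RefSeq promoter windows (GRCm38.p6), run 5′ to 3′ on the strand of the gene, and are limited to a stretch free of annotated exons between 250 and 61 bases before the RefSeq start site. That site differs from the start site used for distance by 45 bases for 1700123O20Rik, 60 for Slc7a8 and 0 for Acin1. The Slc7a8 stretch thus ends directly beside the start site used for its distance. Capitals mark CG dinucleotides.
1700123O20Rik, chr14:54686061-54686110, plus strand: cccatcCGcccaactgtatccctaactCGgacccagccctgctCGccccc
Acin1, chr14:54687121-54687181, minus strand: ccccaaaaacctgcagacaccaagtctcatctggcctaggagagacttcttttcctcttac
Slc7a8, chr14:54781947-54782136, minus strand: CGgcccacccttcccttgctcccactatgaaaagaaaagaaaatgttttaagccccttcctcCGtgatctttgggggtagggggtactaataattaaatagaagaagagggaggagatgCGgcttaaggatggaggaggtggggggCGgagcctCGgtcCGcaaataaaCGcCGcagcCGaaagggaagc

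The full 190 bases held 7 CG dinucleotides for 1700123O20Rik, 4 for Acin1 and 9 for Slc7a8, against a median of 4 over 32817 promoter windows. A C/EBP-type motif, TTGCNNAA on either strand, was in none of these 3 windows. It was in those of 2 of the 20 measured neighbours with a window, Slc7a7 and Thtpa, and in 7.78% of all windows.

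1700123O20Rik gave lower values in the guide libraries. The EV libraries held 21.6 and 26.6 FPKM, the sg2 libraries 17.8 and 12.1 and the sg5 libraries 16.96 and 13.4. All 4 guide libraries lay below both EV libraries, and the lower library of each guide was the one numbered 2. The mean was 24.1 ± 3.55 FPKM (SD, n = 2) in EV and 15.1 ± 2.72 FPKM (SD, n = 4) with guides, or 62.6% of EV. The log2 difference was -0.65 (SE 0.19), and 2.54% of the tested genes had a more negative one. With the replicate block it was -1.004 without the first EV library and -0.30 without the second. The limma adjusted p over all genes was 1.00, with 0.667 under the replicate block and 0.284 under the block with protein-coding genes alone. The lowest library held about 761 fragments of this gene by the implied depth.

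Acin1 differed in the same direction by a smaller amount. The EV libraries held 129 and 134 FPKM, the sg2 libraries 119 and 122 and the sg5 libraries 115 and 114. Again no guide library reached the EV range, and the libraries of each group lay close together. The mean was 131 ± 3.40 FPKM (SD, n = 2) in EV and 118 ± 3.62 FPKM (SD, n = 4) with guides, or 89.5% of EV. This is a log2 difference of -0.16 (SE 0.11). The limma adjusted p was 1.00, and 0.813 under the block.

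Slc7a8, the next gene on the other side, varied by replicate number. Its level was 15.6 and 50.1 FPKM in the EV libraries, with the sg2 libraries at 12.6 and 23.1 and the sg5 libraries at 17.7 and 23.4. The second EV library was the highest, and the first lay among the guide libraries, so the groups overlapped. The log2 difference of -0.57 (SE 0.48, limma adjusted p = 1.00) rested on the second EV library: without it the value was 0.24, or -0.059 with the replicate block.

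**Figure D1:**
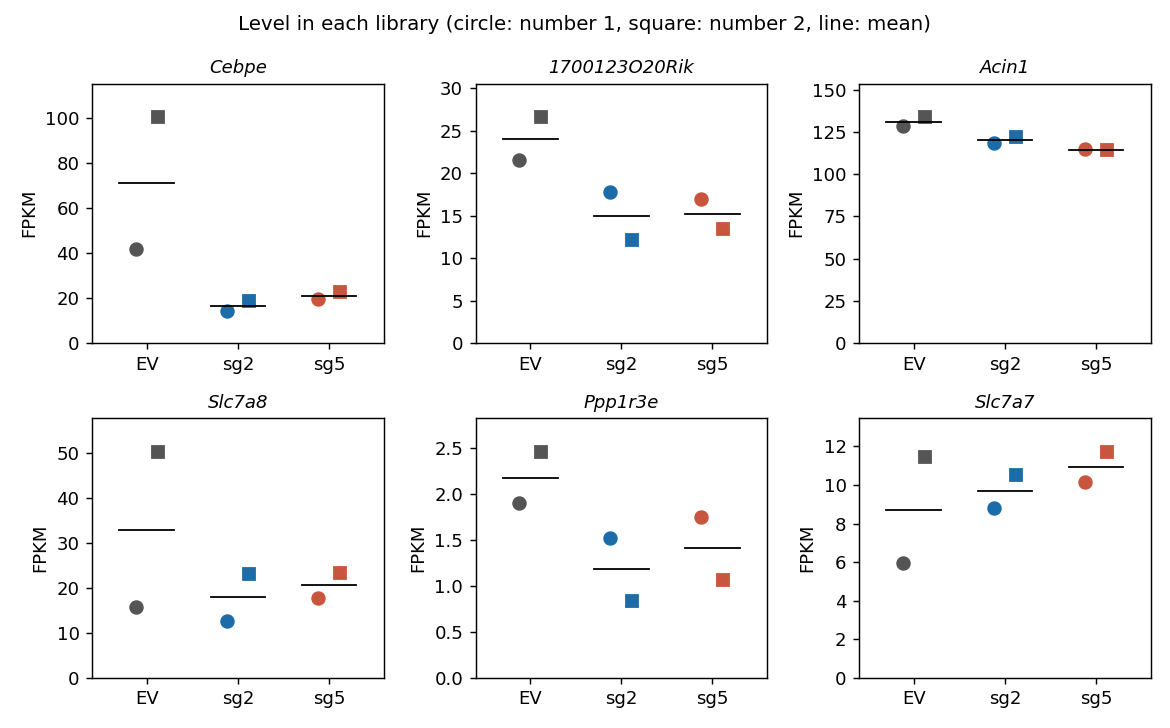
FPKM (vertical axes from 0) of Cebpe and 5 neighbours in each of the 6 libraries, by group, with circles for libraries numbered 1, squares for those numbered 2 and a line at the group mean. Guide libraries lie below both EV libraries for Cebpe, 1700123O20Rik, Acin1 and Ppp1r3e, while the groups overlap for Slc7a8 and Slc7a7.

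Between 50 and 150 kb from Cebpe, Psmb5 and Cdh24 were also measured. Psmb5 encodes a catalytic subunit of the proteasome and starts 94.2 kb away. The EV libraries held 115 and 93.1 FPKM of it, the sg2 libraries 111 and 86.9 and the sg5 libraries 99.0 and 73.5. Each guide library was below the EV library of its number, but the groups overlapped (log2 difference -0.17, SE 0.20, limma adjusted p = 1.00). Cdh24, a cadherin gene 70.8 kb away, stood at 2.99 and 6.51 FPKM in the EV libraries, 2.77 and 6.37 with sg2 and 4.05 and 5.93 with sg5. Its libraries split by number and not by guide, and the log2 difference was 0.028 (SE 0.37).

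Ppp1r3e, which encodes a subunit that directs protein phosphatase 1 to glycogen, starts 165.4 kb from Cebpe (ENSMUSG00000072494, chromosome 14, 54872669 to 54877550, minus strand). The EV libraries held 1.90 and 2.46 FPKM, the sg2 libraries 1.52 and 0.838 and the sg5 libraries 1.75 and 1.06. All 4 guide libraries were below both EV libraries, at a mean of 59.5% of EV. The log2 difference was -0.48 (SE 0.26, limma adjusted p = 1.00), and -0.79 with a pseudocount of 0.01. With the replicate block it was -0.83 without the first EV library and -0.14 without the second. Its mean level was the lowest of the 21 tested neighbours, and its smallest library held about 56 fragments by the implied depth, for a counting error near 13.4%. Homez, a homeobox gene that starts 158.8 kb away, had overlapping groups and a log2 difference of 0.080 (SE 0.18).

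Bcl2l2, which encodes the survival protein BCL-W, starts 171.2 kb away. Both EV libraries were close together at 16.6 and 17.1 FPKM, the sg2 libraries at 17.4 and 17.8 and the sg5 libraries at 17.5 and 17.2. All 4 guide libraries were above both EV libraries, by a log2 difference of 0.046 (SE 0.10, limma adjusted p = 1.00). Pabpn1, the gene of the nuclear poly(A)-binding protein, held 133 and 125 FPKM in the EV libraries, and its guide libraries ran from 116 to 145 FPKM. Both genes share exonic bases with Gm20521, so reads may be split among the 3. Slc22a17, a lipocalin receptor gene, had a log2 difference of 0.095 (SE 0.13).

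On the side of lower coordinates, Haus4 (a subunit of the augmin complex of the spindle), Prmt5 (an arginine methyltransferase), Lrp10 (a lipoprotein receptor family gene) and Slc7a7 (a transporter of cationic amino acids) start between 157.6 and 294.4 kb away. Slc7a7 stood at 5.95 and 11.5 FPKM in the EV libraries, 8.81 and 10.5 with sg2 and 10.1 and 11.7 with sg5. The first EV library was the lowest, and the second lay among the guide libraries. Its log2 difference of 0.27 (SE 0.25, limma adjusted p = 1.00) was the highest of the 21 neighbours. Without the first EV library it was -0.15, or -0.043 with the block as well. Haus4, Prmt5 and Lrp10 had log2 differences of 0.051, -0.11 and 0.10.

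Over 300 kb away, Ngdn, Zfhx2, Thtpa, Ap1g2, Oxa1l, Abhd4 and Dad1 had log2 differences between -0.066 and 0.11. Abhd4, a phospholipid hydrolase gene, starts 458 kb away. The EV libraries held 52.9 and 127 FPKM of it, the sg2 libraries 56.1 and 124 and the sg5 libraries 63.5 and 134. Its libraries split by number with no overlap, while the guide libraries lay on both sides of EV of the same number. Dad1, which starts beside it and encodes a subunit of the oligosaccharyltransferase, ranged from 101 to 126 FPKM over all libraries. Ap1g2 and Thtpa share 412 exonic bases on opposite strands, and Oxa1l and Slc7a7 share 232.

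The genes below the filter were Mmp14, Rem2, Ajuba, Psmb11, Efs, Il25, Cmtm5, Myh6, Myh7, Jph4 and Dhrs2. They include tissue-restricted genes such as the cardiac myosins Myh6 and Myh7 and the thymic proteasome subunit Psmb11. Efs and Dhrs2 were listed at 0 in every library. The highest value among the others was 0.804 FPKM, for Cmtm5. For a transcript of 1 kb, 3 fragments correspond to between 0.0656 and 0.0943 FPKM. By the implied depth these genes rest on few fragments, at most about 37 in a library (Myh7, first sg2 library). What difference could be detected at such levels was not computed. With no filter, limma called 0 of 30 neighbours for guides against EV.

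**Figure D2:**
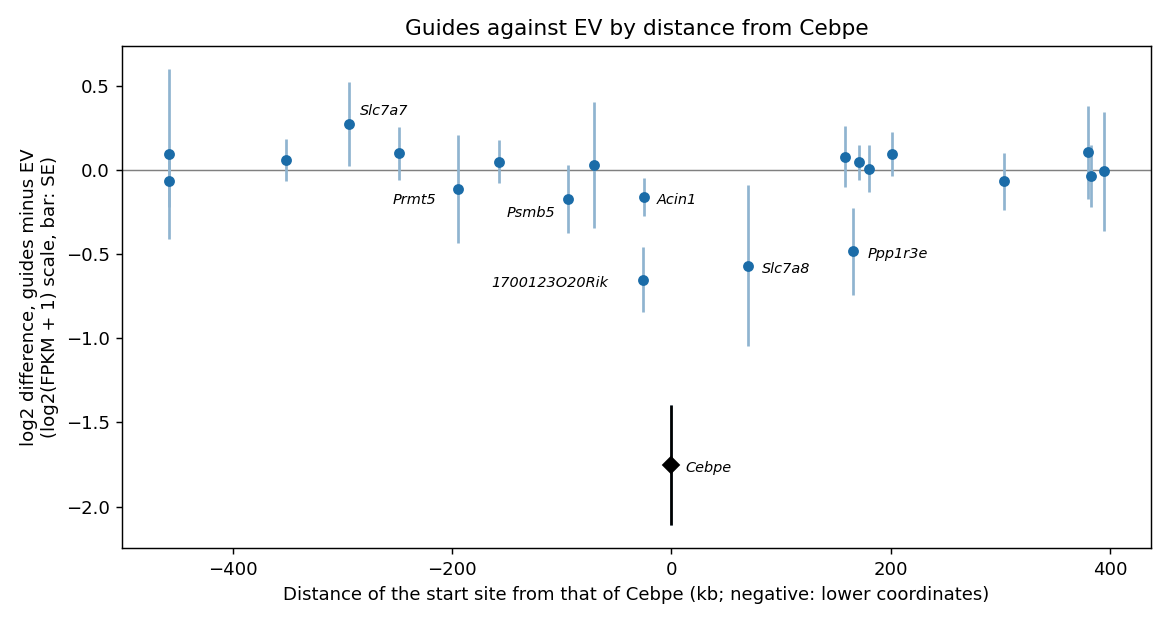
Log2 difference between guides and EV (points, with SE as bars) against the distance in kb of each start site from that of Cebpe, for the 21 tested neighbours and Cebpe (diamond). The values furthest below 0 after Cebpe are those of 1700123O20Rik (-0.65), Slc7a8 (-0.57) and Ppp1r3e (-0.48), and the genes over 300 kb away lie near 0.

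By distance, the median log2 difference was -0.40 for the 2 genes up to 50 kb from Cebpe and -0.17 for 3 genes between 50 and 150 kb. It was 0.051 for 9 genes between 150 and 300 kb and -0.0065 for 7 genes beyond. Over the 21 neighbours together the median was 0.0079, with 10 lower and 11 higher, and over all 12929 genes tested it was -0.0046. Without the second EV library the band from 50 to 150 kb had a median of 0.24. By nearest edges the first band holds Slc7a8 as well, with a median of -0.57, and the second has 0.028. Distance and log2 difference had a Pearson r of 0.515 and a Spearman rho of 0.471 across the 21 genes, which share libraries and are not independent replicates. With each guide library set against the EV library of its number, rho was 0.557 for sg2 and 0.168 for sg5 in number 1. In number 2 rho was 0.366 for sg2 and 0.436 for sg5.

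In the comparison of guides with EV limma called 0 of 21 neighbours, against 0 of 12929 genes (0%). At an unadjusted p under 0.05 there was 1 neighbour, 1700123O20Rik (4.76%), against 1.31% of all genes. With the replicate block there were 2, 1700123O20Rik and Acin1 (9.52%), against 5.72% of all genes, and 0 neighbours after adjustment against 5 genes (0.0387%). All 4 guide libraries lay below both EV libraries for 3 of 21 neighbours, 1700123O20Rik, Acin1 and Ppp1r3e (14.3%), against 2.56% of all genes tested. They lay above both for 1 neighbour, Bcl2l2 (4.76%), against 2.54%. Each guide library was below the EV library of its number for 5 neighbours, Psmb5, Ngdn and these 3 lower ones (23.8%), against 12.5% of all genes, and above it for 2, Oxa1l and Bcl2l2 (9.52%), against 12.5%. An exact two-sided permutation test over the 6 libraries gave p = 0.0667 for 1700123O20Rik, for Acin1 and for Bcl2l2, the smallest that the design allows. The exact p was 0.133 for Ppp1r3e.

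Each guide was then set against EV, with the EV libraries shared by both comparisons. For sg2 and sg5 the log2 difference of 1700123O20Rik was -0.67 and -0.63 (SE 0.25 for both). That of Acin1 was -0.12 and -0.19 (SE 0.16), that of Slc7a8 -0.69 and -0.45 (SE 0.60) and that of Ppp1r3e -0.56 and -0.41 (SE 0.33). Limma called 0 of 21 neighbours for sg2, against 1 of 12929 genes (0.00773%), and 0 for sg5 (0% of all genes). At an unadjusted p under 0.05 there was 1 neighbour for sg2, 1700123O20Rik, against 1.16% of all genes, and 0 for sg5 against 1.36%. With the block there was 1 for sg2 against 4.3%, and for sg5 there were 3, Psmb5, 1700123O20Rik and Acin1 (14.3%), against 8.04%. After adjustment 0 neighbours were called with the block, against 3 genes for sg2 (0.0232%) and 2 for sg5 (0.0155%).

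Between the guides, sg5 minus sg2 was 0.037 (SE 0.25) for 1700123O20Rik, -0.070 (SE 0.16) for Acin1 and 0.24 (SE 0.60) for Slc7a8. These errors leave room for sizeable differences between the guides. Limma called 0 neighbours and 0% of all genes, with or without the block. At an unadjusted p under 0.05 there were 0 neighbours against 0.859% of all genes, and with the block 1, Psmb5, against 5.29%.

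Setting each guide library against the EV library of its number separated the replicate numbers. In number 2, 3 neighbours stood apart: with sg2, 1700123O20Rik was at 45.6%, Slc7a8 at 46.1% and Ppp1r3e at 34.1% of EV. With sg5 they were at 50.5%, 46.6% and 43.3%. In number 1 these 3 genes were at 82.4%, 80.7% and 80.1% of EV with sg2, and at 78.7%, 113% and 92.4% with sg5. In number 2 the other 18 neighbours had log2 differences between -0.14 and 0.24 with sg2 and between -0.34 and 0.22 with sg5. In number 1 these 18 spread more widely, between -0.18 and 0.50 with sg2 and between -0.54 and 0.68 with sg5. For Cebpe the sg2 and sg5 libraries were at 34.3% and 46.2% of EV in number 1, and at 18.6% and 22.6% in number 2.

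In number 2 the 3 genes were the only neighbours of 21 (14.3%) with a log2 difference under -0.5, for both guides, against 5.13% of all genes tested with sg2 and 5.22% with sg5. In number 1, 0 neighbours were under -0.5 with sg2 (3.75% of all genes), and 1 was with sg5, Prmt5 (5.99% of all genes). The limit of -0.5 was chosen after the values were seen. Both guide libraries of a number are set against the same EV library, so the 2 values of a number share its error. Ppp1r3e and 1700123O20Rik were higher in the second EV library than in the first, and lower in the second library of each guide than in the first.

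**Figure D3:**
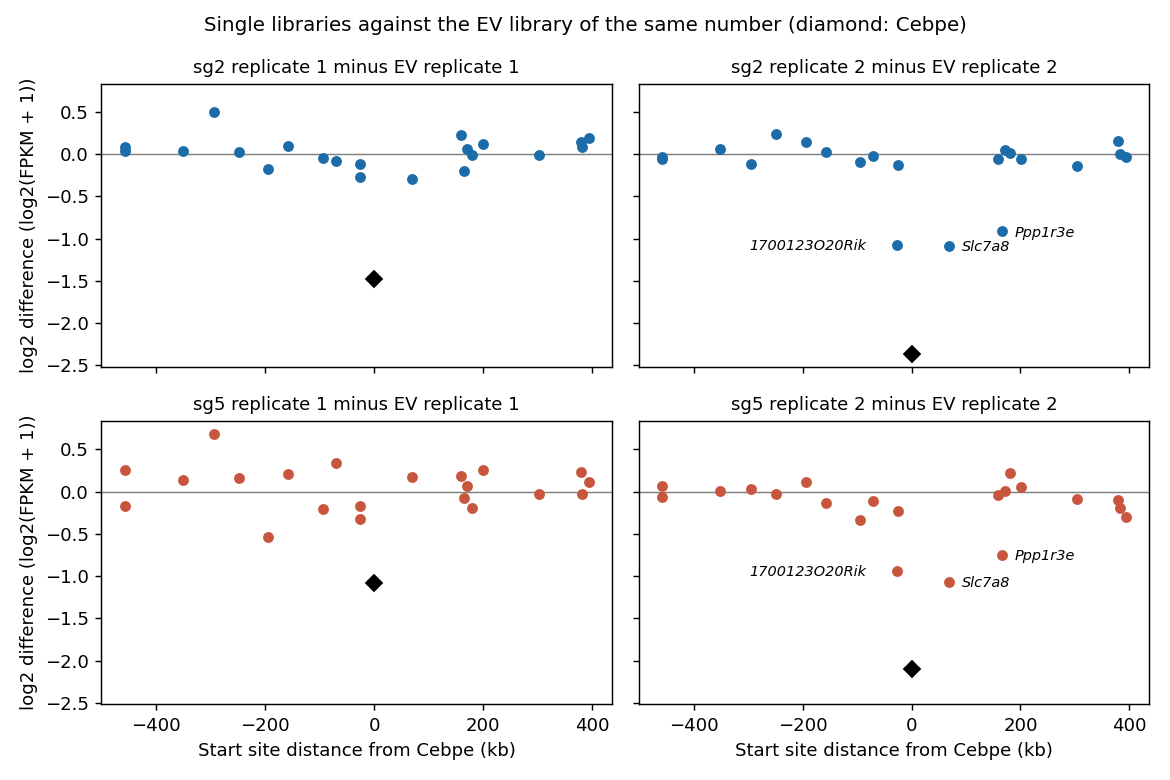
Log2 difference of each guide library from the EV library of the same number, on the log2(FPKM + 1) scale, against start site distance in kb, for 21 neighbours (circles) and Cebpe (diamonds). In both panels of number 2, 1700123O20Rik, Slc7a8 and Ppp1r3e lie between -1.09 and -0.74, and the other neighbours at -0.34 or above.

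A fit with an interaction asked whether the guide effect differed between the numbers. The EV library of each number has no replicate within that number. The SE and p-values of this fit therefore reflect the spread between sg2 and sg5 within a number and hold no measured error of EV. It gave -0.71 (SE 0.16, limma adjusted p = 0.869) for 1700123O20Rik, a more negative guide difference in number 2. The interaction was -1.02 (SE 0.31) for Slc7a8, -0.63 (SE 0.20) for Slc7a7, -0.69 (SE 0.30) for Ppp1r3e and -0.95 (SE 0.32) for Cebpe, each with a limma adjusted p of 1.00. Of the 21 neighbours 3, 1700123O20Rik, Slc7a8 and Slc7a7, had an unadjusted p under 0.05 (14.3%), against 4.18% of all genes. The interaction was negative for 17 of the 21 neighbours (81.0%), with a median of -0.15, against 51.7% of all genes and a median of -0.0095. Negative values were found at all distances, among them 6 of the 7 neighbours over 300 kb away. Of 24 other tested genes within 1 Mb of Cebpe, 13 had a negative interaction (54.2%, median -0.010). On the rest of chromosome 14 it was negative for 200 of 375 genes (53.3%, median -0.016). All these values rest on the same EV library of each number, so the genes are not independent replicates. After adjustment 0 neighbours and 0% of all genes passed. In number 1, Slc7a7 was at 148% of EV for sg2 and 171% for sg5, and in number 2 at 91.8% and 102%.

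**Figure D4:**
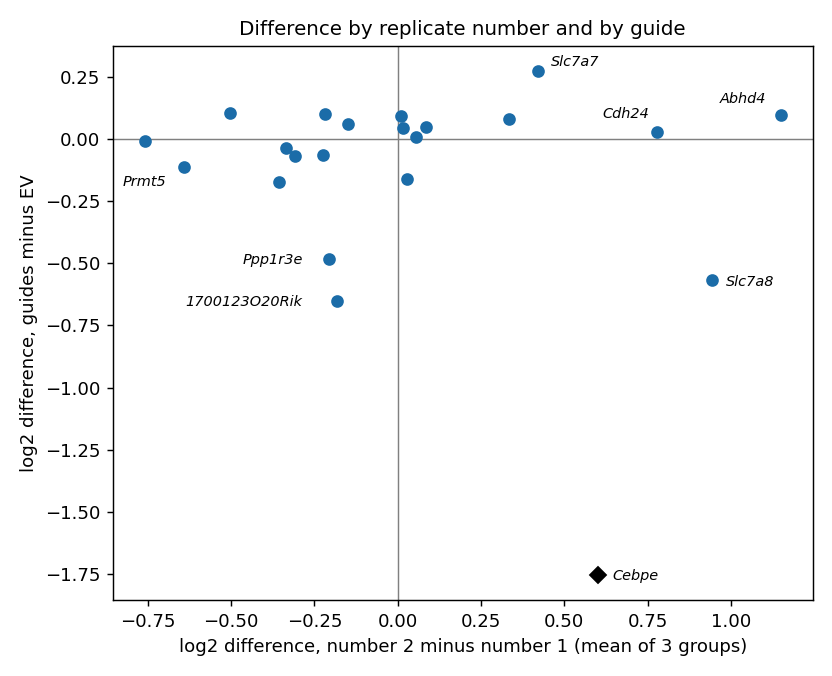
Log2 difference between guides and EV (vertical) against the log2 difference between libraries numbered 2 and 1, averaged over the 3 groups (horizontal), for 21 neighbours and Cebpe (diamond). Abhd4 and Cdh24 lie far to the right at a guide difference near 0. 1700123O20Rik and Ppp1r3e lie low, with a small averaged difference between numbers (-0.18 and -0.21). For both genes this average joins a rise from number 1 to number 2 in EV (0.29 and 0.25) with a fall in each guide.

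Other annotated genes near Cebpe were set beside the neighbours. Of 141 further genes with a start site within 1 Mb, 24 were tested, with 15 lower and 9 higher and a median log2 difference of -0.055. The smallest p among them belonged to Ipo4, an importin gene 924 kb away, to Trav18, a T cell receptor segment 881 kb away, and to Mdp1, a phosphatase gene 948 kb away, each with a limma adjusted p of 1.00. Ipo4 stood at 24.9 and 17.02 FPKM in the EV libraries, 16.7 and 16.5 with sg2 and 9.48 and 14.03 with sg5 (log2 difference -0.54, SE 0.27). It was the only one of the 24 (4.17%) whose guide libraries were all below both EV libraries, against 2.56% of all genes, and Mdp1 the only one (4.17%) with all above, against 2.54%. Named for their distance after the values were seen, 4930579G18Rik, a gene antisense to Acin1 that starts 61.7 kb away, and 4931414P19Rik, 106 kb away, had log2 differences of -0.13 (SE 0.31) and -0.14 (SE 0.18), with overlapping groups. The 375 tested genes on the rest of chromosome 14 had a median of 0.0032. The guides differed over the 24 genes within 1 Mb. With sg2 alone 10 were lower and 14 higher (median 0.033), and with sg5 alone 16 were lower and 8 higher (median -0.11).

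The genes of KRAB partner proteins, from a list of 15, were all measured. Between all guide libraries and EV, 14 of these had negative log2 differences, against 51.3% of all genes, and 1 a positive one. The median was -0.071, and 0 of the 15 genes passed the limma test. Their summed level ran from 934 to 1241 FPKM over the EV libraries and from 864 to 1219 over the guide libraries, so the groups overlapped. The 15 genes share libraries and are not independent replicates. For 1 of the 15 all guide libraries lay below both EV libraries, against 2.56% of all genes.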

How the data were processed

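RNA-seq of 6 libraries of mouse 32D cells was analysed from 1 table per library, in which the authors deposited FPKM values for 47606 genes. Tools named in the submitters' processing notes are kallisto 0.43.0 and DESeq2, and builds are GRCm38 and mm10, with no role stated. The annotation release and any use of strand are not stated. The deposited position column places 100% of genes on chromosome 1 and was not used. Positions were taken by gene ID from GENCODE M21 (GRCm38).

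Genes averaging 1 FPKM or more were tested with limma 3.58.1 (R 4.3.3) on log2(FPKM + 1), using an intensity trend, with Benjamini-Hochberg adjustment over 12929 genes at 0.05. This scale understates changes of low genes. Both guides together, then each guide, were set against EV, and an interaction of guide with replicate number was fitted. Count models were not run, since the files hold FPKM. The procedure was run on simulated data with and without the replicate block, and a required outcome was set only for the fit with the block.

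Depth was read from 752 single-transcript genes longer than 4000 nt, assuming fragments of 200 nt. Between 91.9% and 97.8% of low values lay within 0.15 of a whole fragment. Fragment numbers per gene use the longest transcript, are approximate and cover counting error only.

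As a check of pairing, the change from replicate 1 to 2 was compared across genes: its correlation was 0.611 for EV with sg2, 0.591 for EV with sg5 and 0.583 for sg2 with sg5. All 6 libraries were closest to one sharing their number. Libraries of 1 number were taken as pairs on this evidence from the data alone, since the labels call the number neither a batch nor a day. No label says that replicates were separate cultures, so the p-values reflect only how far these samples spread, which may be technical.

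The neighbours, lists and tests were chosen with earlier results of these data known. Values in every library are given for neighbours within 50 kb, those whose groups do not overlap, those with an unadjusted p under 0.05 in a comparison and the 3 with the largest differences. Cdh24 and Abhd4 were added after values were seen. Of the other genes within 1 Mb, the 3 of smallest p are named. Alternatives covered the block, pseudocount, filter, scaling, trend, gene class, placement of the second sg5 library and leaving out each library.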

Additional observations from a re-analysis of the deposited data

How the results depend on the processing

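Across 112 fits (each comparison under each setting) 0 neighbours passed the limma threshold. The count of genes past it moved with the processing. For both guides against EV the count of 0 became 5 with the replicate block (5 when also scaled to genes of at least 200 nt), 2 with a pseudocount of 0.01, 6 with no filter, 4 with no intensity trend, 1 with protein-coding genes only and 18 with those and the block. For sg2 the count of 1 became 3 with the block (3 with that scaling), 24 with the block and protein-coding genes, and 0 with no filter, with a filter at 5 FPKM, with protein-coding genes only, or with the second sg5 library placed with sg2. For sg5 the count of 0 became 2 with the block (2 with that scaling), 33 with the block and protein-coding genes and 18 with no filter. Between guides 0 became 23 with no filter and 3 with the block and protein-coding genes. The interaction count of 0 became 2 with a pseudocount of 0.01, 243 with no filter, 27 with no intensity trend and 2 with protein-coding genes only. Protein-coding genes only, the scaling with the block and leaving out libraries with the block were chosen after seeing the data.

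With 1 library left out, with or without the replicate block, the count was between 0 and 2 for both guides (1 without the second EV or the first sg2 library, 2 without the latter under the block) and between 0 and 1 for sg2. The median of the band up to 50 kb was then between -0.59 and -0.22 and that from 50 to 150 kb between -0.43 and 0.24. The band from 150 to 300 kb ranged from 0.026 to 0.071, and with the block from -0.0012 to 0.092 (0.085 without the second sg5 library). By nearest edges the first 2 bands had -0.57 and 0.028. The band from 50 to 150 kb had 0.028 with no filter and -0.37 with a filter at 5 FPKM, and that from 150 to 300 kb 0.024 with no filter and 0.074 when scaled to genes of at least 200 nt, with or without the block. In these leave-one-out fits Slc7a8 ranged from -1.38 to 0.24 (without the first and the second EV library) and Slc7a7 from -0.15 to 0.69, or from -0.043 to 0.59 with the block. 1700123O20Rik stayed between -1.004 and -0.30, Ppp1r3e between -0.83 and -0.14 and Cebpe between -2.37 and -1.14, each with its most negative value without the first EV library and its least negative without the second. The causes were not tested. The interaction could not be fitted without an EV library. The block changed no call of a neighbour. Depth limits the genes below 1 FPKM and Ppp1r3e.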
